A study of Mus musculus with 6 samples.

Results

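The genes described here are 9 that shape mitochondria in mouse CD8+ T cells: Opa1, Mfn1 and Mfn2, which fuse mitochondria, Oma1 and Yme1l1, proteases that cut the OPA1 protein, and Dnm1l, Mff, Fis1 and Mief1, which divide mitochondria. They were taken by gene name from the deposited table of 11175 genes, where each of the 9 has 1 row, and all 9 were above the filter of a mean of 1 FPKM that left 10887 genes for testing. The cells were wild-type (WT) CD8+ T cells from spleen, stimulated for 48 h with αCD3/αCD28, antibodies that engage the antigen receptor and its costimulator CD28. The 3 control libraries came from cells stimulated without DOPAC and the 3 DOPAC libraries from cells stimulated with it. DOPAC is 3,4-dihydroxyphenylacetic acid, a breakdown product of dopamine. The sources used here do not give its dose or the age and number of mice. Nothing in the labels says whether replicates are separate mice or separate cultures, so p-values cover the spread of these libraries alone, and that spread may be technical.

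Mitochondria form a network that fuses and divides all the time. Outer membranes are joined by the mitofusins MFN1 and MFN2, and inner membranes by OPA1, which also keeps the folds of the inner membrane (cristae) tight. OMA1 and YME1L cut the long, fusion-active forms of OPA1 into short forms. Division is carried out by DRP1, the product of Dnm1l, a GTPase of the cytosol that is recruited to the outer membrane by MFF, MID51 (the product of Mief1) and FIS1 and then constricts the organelle. In CD8+ T cells, effector cells are known for divided mitochondria and memory cells for fused ones with tight cristae. Much of this control acts on the proteins, by cutting, phosphorylation and recruitment, which transcript levels do not show.

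None of the 9 genes passed the test (limma, Benjamini-Hochberg adjusted p under 0.05 over all genes tested), where the share of all genes called was 0%, and the lowest adjusted p among the 9 was 0.801. None of the 9 had an unadjusted p under 0.05 either, against 4.19% of all genes tested. Log2 fold changes, of FPKM + 1 and as DOPAC minus control, ran from -0.22 for Fis1 to 0.40 for Yme1l1, with 7 positive and 2 negative, against 62.1% positive among all genes. The median of the 9 was 0.18 and that of all genes tested 0.066. In Yme1l1 and Dnm1l all 3 DOPAC libraries lay above all 3 controls, a separation that 12.4% of all genes had in this direction. The reverse, all DOPAC libraries below all controls, was found in 0 of the 9 and in 4.8% of all genes, and the groups overlapped in 7 members. Taken as same-numbered pairs, DOPAC was above control in all 3 pairs for 4 of the 9, Opa1, Yme1l1, Dnm1l and Mff, against 23.8% of all genes. Control replicate 1 set much of their size. Without it the range was -0.24 to 0.13, the median of the 9 was 0.078 and that of all genes -0.011, and 6 of the 9 were positive against 47.3% of all genes. In that fit 0 of the 9 passed the adjusted threshold, against 0.0184% of all genes, and 0 of the 9 had an unadjusted p under 0.05, against 14.5%.

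The libraries differed as follows. The sum of FPKM over all genes ranged from 283818 to 316035. Read depth cannot be known from FPKM, so values carry no counting interval. Control replicate 1 stood apart, with Pearson's r over genes of 0.899 to 0.917 with the other 5 libraries, which gave 0.974 to 0.992 among themselves. All 5 CD8 T cell markers looked at (Cd8a, Cd8b1, Cd3d, Cd3e, Cd3g) were listed, with a summed level of 510 to 530 FPKM in the controls and 473 to 528 FPKM with DOPAC. Of the markers of other cells, 2 of 5 for macrophages (Cd68 and Lyz2) were listed, with sums of 14.2 to 33.8 and 4.45 to 12.4 FPKM, and 3 of 3 for fibroblasts (Col1a1, Col1a2, Col3a1), with sums of 25.7 to 27.9 and 0.330 to 16.0 FPKM. For B cells 1 of 4 was listed (Cd79b, 1.54 to 2.49 and 1.47 to 2.61 FPKM) and for erythroid cells 2 of 4 (Hba-a1 and Hbb-bs, sums of 2.72 to 10.4 and 0.280 to 3.02 FPKM). Cd4 and the markers of dendritic cells (Itgax, Flt3) and NK cells (Ncr1, Klrb1c) had no row in the table. The macrophage and fibroblast markers thus moved with the groups, and their part in the values of the 9 genes was not tested. In bulk RNA, fewer cells of a type and less RNA per cell cannot be told apart.

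The sequence upstream of 3 members is shown because Opa1 and Dnm1l had nearly the same profile over the 6 libraries (described at the end) while Fis1 had the opposite one in control replicate 1. The bases come from RefSeq promoter windows on GRCm38.p6, run 5′ to 3′ on the gene's strand and end just before the RefSeq transcription start. Capitals mark matches, on either strand, to GCGCATG, part of the palindrome bound by NRF1, a factor of mitochondrial biogenesis, or to CCGGAAG, the core bound by ETS factors such as GABP. The profile of Yme1l1 was nearer to those of Opa1 and Dnm1l than these were to each other. Its upstream stretch, cut to 114 bp where an annotated exon begins, held no such match and is not printed. A link between these sequences and the profiles was not tested, and control replicate 1 departed with exon length (below).
Opa1, chr16:29579084-29579333, plus strand: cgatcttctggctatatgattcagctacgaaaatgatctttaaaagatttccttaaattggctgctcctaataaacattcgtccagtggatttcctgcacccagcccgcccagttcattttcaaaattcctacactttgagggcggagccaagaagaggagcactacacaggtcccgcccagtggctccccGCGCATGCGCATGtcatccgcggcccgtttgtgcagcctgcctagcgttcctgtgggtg
Dnm1l, chr16:16359032-16359281, minus strand: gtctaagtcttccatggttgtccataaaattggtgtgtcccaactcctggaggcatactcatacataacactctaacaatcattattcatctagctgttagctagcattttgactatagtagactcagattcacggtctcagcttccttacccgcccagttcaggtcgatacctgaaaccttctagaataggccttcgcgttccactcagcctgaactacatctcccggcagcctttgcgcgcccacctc
Fis1, chr5:136953025-136953274, plus strand: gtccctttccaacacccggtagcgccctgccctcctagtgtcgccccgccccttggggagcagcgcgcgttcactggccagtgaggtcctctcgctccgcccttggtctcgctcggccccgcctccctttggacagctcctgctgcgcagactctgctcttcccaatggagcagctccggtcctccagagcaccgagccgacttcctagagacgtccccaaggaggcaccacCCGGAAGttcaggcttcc

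All 9 members had RefSeq windows (14 in all, each 250 bases before to 50 bases after a start). Among the 9, GCGCATG was found in the window of Opa1 alone, where 3 matches overlap, and it was found in 3.91% of the 32851 windows of all genes. The ETS core was found in 6 of the 14 windows, those of 5 members (Dnm1l, Fis1, Mfn1, Mief1 and Yme1l1), and in 8.86% of all windows. The hypoxia-factor core, ACGTG or GCGTG, was found in 6 of the 14 windows, those of 3 members (Dnm1l, Fis1 and Mfn2), and in 43.8% of all windows. Windows of 1 gene can overlap and so share a match. The E-box CACGTG, which holds ACGTG within it, was found in 0 of the 9 and in 7.15% of all windows. The matches of Dnm1l, and the hypoxia-factor match of Fis1, lie outside the stretches printed. The ETS match of Yme1l1 lies outside its shortened upstream stretch. These are matches of letters and not sites shown to be bound.

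**Figure D1:**
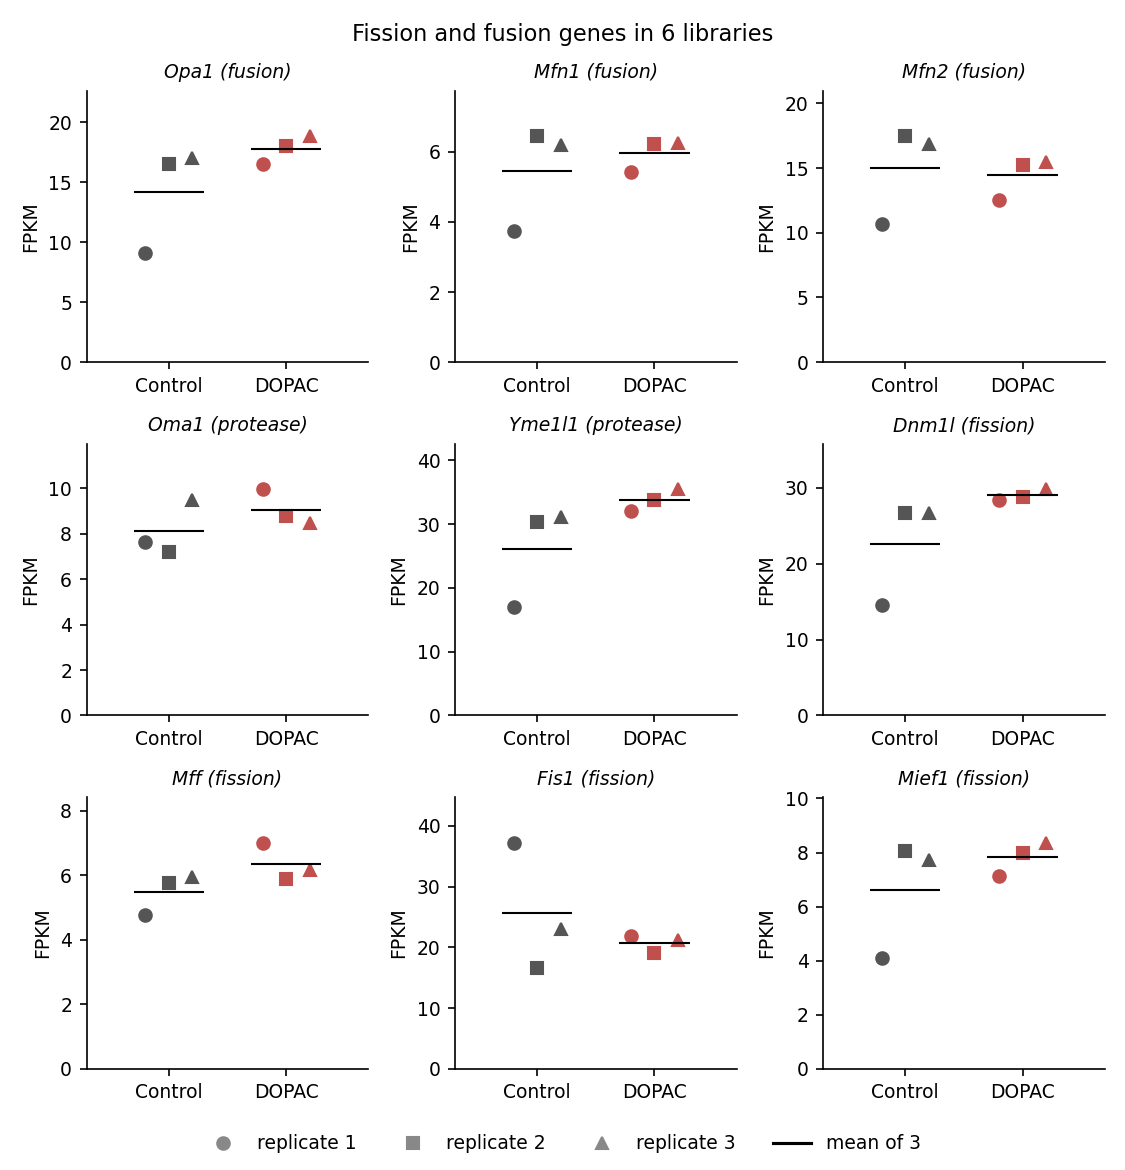
FPKM (y axis, from 0) of the 9 fission and fusion genes in the 3 control and 3 DOPAC libraries, with 1 point per library, its shape giving the replicate number, and a line at the mean of 3. Control replicate 1 is the lowest library of Opa1, Mfn1, Mfn2, Yme1l1, Dnm1l, Mff and Mief1 and the highest of Fis1.

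Opa1, the inner membrane fusion GTPase, lies at chr16:29579334-29654884 (GENCODE M21 on GRCm38, plus strand). It was listed at 9.08, 16.5 and 17.0 FPKM in control replicates 1, 2 and 3 and at 16.5, 18.0 and 18.9 FPKM in DOPAC replicates 1, 2 and 3. The groups overlapped, since DOPAC replicate 1 fell among the controls, and control replicate 1 was far below every other library. The means were 14.2 ± 4.45 and 17.8 ± 1.19 FPKM (SD, n = 3 each). This is a log2 fold change of 0.35 (95% interval -0.22 to 0.92, adjusted p = 0.801 with limma). Without control replicate 1 it was 0.078 (95% interval -0.11 to 0.27).

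Over all 6 libraries Mfn1 and Mfn2, the mitofusin genes, had log2 fold changes nearer to 0 than that of Opa1. The ranking did not hold without control replicate 1. Mfn2 was then farther from 0 than Opa1 (-0.24 against 0.078) and Mfn1 about as far (-0.073). The difference from Opa1 was not tested. Mfn1 (chr3:32529465-32579239, plus strand) was listed at 3.73, 6.46 and 6.20 FPKM in the controls and at 5.43, 6.24 and 6.26 FPKM with DOPAC. Apart from control replicate 1 the 2 groups covered much the same values. Its difference by limma was 0.14 on the log2 scale (95% interval -0.35 to 0.62, adjusted p = 0.854), and -0.073 without control replicate 1. Mfn2 (chr4:147873599-147904704, minus strand), which also tethers mitochondria to the endoplasmic reticulum, was listed at 10.7, 17.5 and 16.9 FPKM in the controls and at 12.6, 15.2 and 15.5 FPKM with DOPAC. Its 3 DOPAC values lay between control replicate 1 and the other 2 controls. The resulting log2 fold change was close to 0, at -0.028 (95% interval -0.53 to 0.47, adjusted p = 0.973 with limma). Without control replicate 1 it was -0.24 (95% interval -0.496 to 0.013, adjusted p = 0.359), and all 3 DOPAC libraries then lay below both controls, as in 21.5% of all genes in that fit.

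Both proteases that cut OPA1 had positive differences, and that of Yme1l1 was larger than that of Oma1. Yme1l1 (chr2:23156369-23199260, plus strand) encodes the ATP-dependent protease that cuts OPA1 in resting mitochondria. It was listed at 17.0, 30.4 and 31.1 FPKM in the controls and at 32.1, 33.7 and 35.5 FPKM with DOPAC. Every DOPAC library was above every control, by a narrow margin apart from control replicate 1. Limma gave a log2 fold change of 0.40 (95% interval -0.17 to 0.97, adjusted p = 0.801) and 0.13 without control replicate 1 (95% interval -0.045 to 0.30), with the groups still apart, as in 15.3% of all genes in that fit. The processed pseudogene Gm14897 matches 207 bp of its transcript at 96.1% of bases. Oma1 (chr4:103313812-103371868, plus strand), the protease that depolarisation and other stress switch on, was listed at 7.62, 7.21 and 9.50 FPKM in the controls and at 9.97, 8.79 and 8.46 FPKM with DOPAC. The groups overlapped, and control replicate 1 was not an extreme library here. Limma put the difference at 0.15 on the log2 scale (95% interval -0.20 to 0.50, adjusted p = 0.805) and 0.11 without control replicate 1.

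Dnm1l, the gene of the fission GTPase DRP1, lies at chr16:16312230-16358959 on the minus strand. It was listed at 14.6, 26.7 and 26.6 FPKM in the controls and at 28.4, 28.8 and 29.8 FPKM with DOPAC. The DOPAC libraries were close together and above all controls. Group means of 22.6 ± 6.98 and 29.0 ± 0.745 FPKM (SD, n = 3 each) gave a log2 fold change of 0.39 (95% interval -0.18 to 0.96, adjusted p = 0.801 with limma), and 0.12 without control replicate 1 (95% interval -0.038 to 0.27, adjusted p = 0.439). Its exons overlap the antisense gene Gm49521 over 243 bp, whose reads cannot be told apart in libraries that do not mark strand. The processed pseudogene Gm13719, which had no row in the table, matches its transcript at 91.2% of bases over 1347 bp. Whether this affects the placing of Dnm1l reads was not tested.

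Of the 3 outer membrane receptors of DRP1, Mff and Mief1 had positive log2 fold changes over all 6 libraries and Fis1 a negative one. The signs of Mief1 and Fis1 turned without control replicate 1. Mff (chr1:82724890-82752394, plus strand), the main receptor in most cells, was listed at 4.77, 5.74 and 5.94 FPKM in the controls and at 7.01, 5.90 and 6.15 FPKM with DOPAC. DOPAC replicate 1 was the highest library and DOPAC replicate 2 fell just below control replicate 3. Limma gave a log2 fold change of 0.18 (95% interval -0.15 to 0.51, adjusted p = 0.801), and 0.10 without control replicate 1. Its exons overlap C430014B12Rik on the other strand over 195 bp.

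Mief1 (chr15:80234018-80253371, plus strand), whose product MID51 recruits DRP1, was listed at 4.11, 8.07 and 7.71 FPKM in the controls and at 7.13, 7.99 and 8.37 FPKM with DOPAC. Control replicates 2 and 3 both lay within the range of the DOPAC libraries. It had a log2 difference of 0.25 (95% interval -0.31 to 0.82, adjusted p = 0.802 with limma), and of -0.012 without control replicate 1. A second protein-coding gene, AC140267.1, shares 213 bp of its exons.

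Fis1 (chr5:136953275-136966234, plus strand), a small tail-anchored outer membrane protein, was listed at 37.3, 16.7 and 23.0 FPKM in the controls and at 21.8, 19.1 and 21.3 FPKM with DOPAC. The controls held both the highest and the lowest library. The log2 fold change was -0.22 (95% interval -0.88 to 0.43, adjusted p = 0.827 with limma), and 0.076 without control replicate 1 (95% interval -0.27 to 0.42), so the sign of Fis1 rests on that library.

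**Figure D2:**
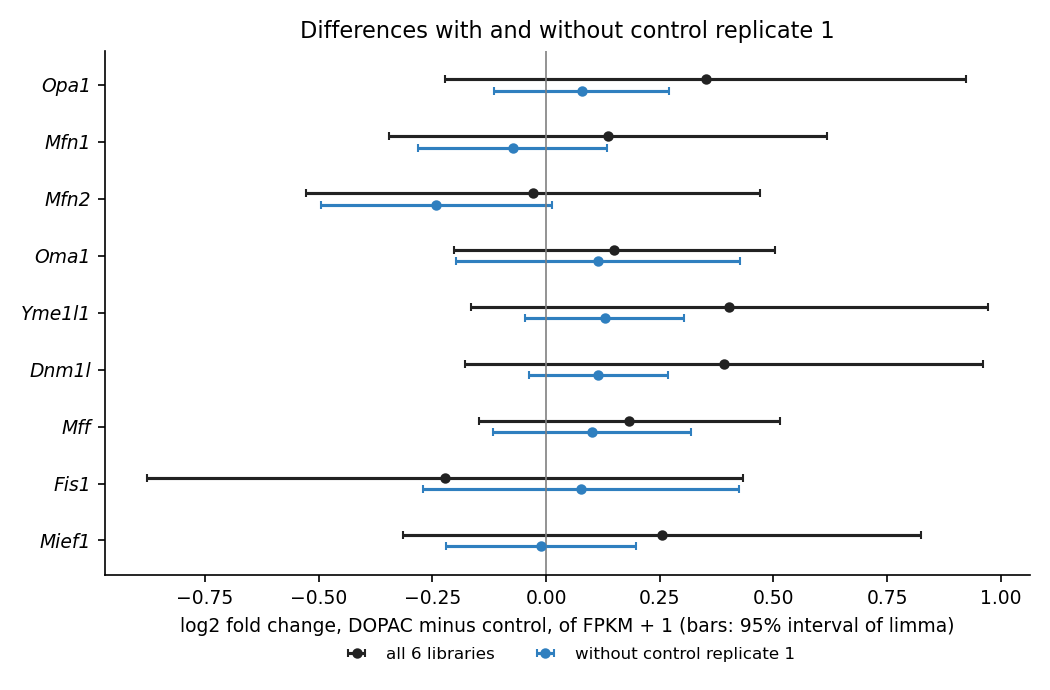
Log2 fold change of FPKM + 1, DOPAC minus control (x axis), for the 9 genes, with points and 95% intervals from limma over all 6 libraries (black) and without control replicate 1 (blue). Every interval includes 0, and in 8 of the 9 genes, Mfn2 being the exception, the point moves towards 0 or across it without control replicate 1.

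FPKM are divided by length, but the annotation behind them is not known, and control replicate 1 departed with length (below). The order of levels across genes is therefore approximate. By the listed values it was clear with DOPAC and blurred in the controls, in large part by control replicate 1. With DOPAC the means ran from Yme1l1 (33.8 ± 1.72 FPKM) through Dnm1l (29.0 ± 0.745), Fis1 (20.8 ± 1.43), Opa1 (17.8 ± 1.19), Mfn2 (14.4 ± 1.62), Oma1 (9.07 ± 0.792), Mief1 (7.83 ± 0.633) and Mff (6.35 ± 0.584) to Mfn1 (5.98 ± 0.475, SD, n = 3 each). The ranges of neighbours in this order did not overlap, except for Mff and Mfn1, which could not be ordered. In the controls the ranges of all neighbours overlapped. Mfn2 (15.0 ± 3.77 FPKM) there came before Opa1 (14.2 ± 4.45), and Fis1 (25.7 ± 10.5) before Dnm1l (22.6 ± 6.98; SD, n = 3 each). Fis1 was above Dnm1l in control replicate 1 alone (37.3 against 14.6 FPKM). Without that library the control mean of Dnm1l was 26.7 FPKM and that of Fis1 19.9 FPKM. Mfn2 then still came before Opa1, at 17.2 against 16.8 FPKM. In control replicates 2 and 3, Yme1l1 (30.4 and 31.1 FPKM) lay above Dnm1l (26.7 and 26.6 FPKM). Dnm1l there lay above Fis1 (16.7 and 23.0 FPKM), and Opa1 above Oma1. The ranges of Fis1 and Mfn2, of Mfn2 and Opa1 and of Oma1 and Mief1 still overlapped. Yme1l1 was above 84.6% of all genes tested by mean FPKM and Mfn1 above 41.3%.

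Pairs of genes were also compared as ratios within a library, in which a factor common to all genes of a library cancels. The ratio of Mfn1 to Mfn2, the 2 mitofusins, was 0.350, 0.369 and 0.368 in control replicates 1 to 3 and 0.432, 0.409 and 0.404 in DOPAC replicates 1 to 3. Its means were 0.362 ± 0.0108 and 0.415 ± 0.0148 (SD, n = 3 each), a log2 difference of 0.196 against a pooled SD of 0.047. All DOPAC libraries were above all controls, control replicate 1 included. Leaving out any 1 library kept the difference between 0.167 and 0.215. This separation is common for Mfn2, since the ratio to Mfn2 was higher in all DOPAC libraries for 24.0% of the other genes tested.

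The ratio of Mfn2 to Opa1, outer against inner membrane fusion, was added after the values were seen. It was 1.18, 1.06 and 0.992 in control replicates 1 to 3 and 0.762, 0.847 and 0.822 in DOPAC replicates 1 to 3. The groups did not overlap and the log2 difference was -0.41 against a pooled SD of 0.10. Leaving out any 1 library kept the difference between -0.46 and -0.34, the latter without control replicate 1. With the length trend removed it was -0.36. The ratio to Opa1 was lower in all DOPAC libraries for 27.0% of the other genes, so this separation is common too.

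The ratio of Dnm1l to Opa1, fission against inner membrane fusion, was 1.61, 1.61 and 1.57 in control replicates 1 to 3 and 1.72, 1.60 and 1.58 in DOPAC replicates 1 to 3. These groups overlapped, with a log2 difference of 0.032 against a pooled SD of 0.049. The 2 GTPase genes thus kept nearly the same ratio in every library. In level, control replicate 1 stood apart for both, at 9.08 FPKM for Opa1 and 14.6 FPKM for Dnm1l. Elsewhere Opa1 ran from 16.5 to 18.9 FPKM and Dnm1l from 26.6 to 29.8 FPKM. The ratio of Oma1 to Yme1l1, the stress-activated against the constitutive protease, was 0.449, 0.237 and 0.305 in control replicates 1 to 3 and 0.311, 0.260 and 0.238 in DOPAC replicates 1 to 3, and its log2 difference of -0.25 was smaller than the pooled SD of 0.36. It was -0.0044 without control replicate 1, -0.46 without control replicate 2 and -0.081 with the length trend removed.

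**Figure D3:**
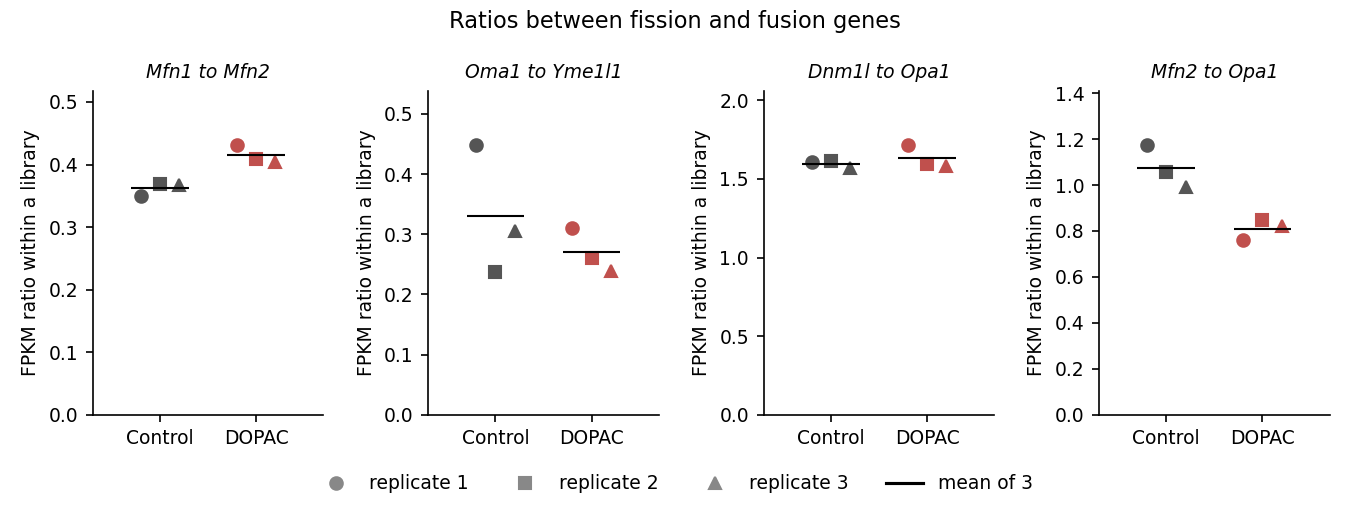
FPKM ratios of 4 pairs of genes within each library (y axis, from 0), with 1 point per library, its shape giving the replicate number, and a line at the mean of 3. The control and DOPAC libraries are apart for Mfn1 to Mfn2 (0.350 to 0.369 against 0.404 to 0.432) and for Mfn2 to Opa1, and overlap for Oma1 to Yme1l1 and Dnm1l to Opa1.

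The departure of control replicate 1 moved with the exon length of the members. Length is the summed length of all annotated exons. Against the median of the other 5 libraries, control replicate 1 was higher by 0.78 on the log2(FPKM + 1) scale for Fis1, the shortest member with 1714 bp. It was at -0.18 for Oma1 (2144 bp), -0.50 for Mfn2 (5194 bp), -0.91 for Dnm1l (5203 bp) and -0.61 for Mfn1 (6114 bp). It was at -0.84 for Opa1 (7875 bp), -0.88 for Yme1l1 (8009 bp), -0.82 for Mief1 (8106 bp) and -0.27 for Mff (9757 bp). Genes of like length gave medians of 0.26 over 1000 and up to 2000 bp, -0.12 up to 4000 bp, -0.37 up to 6000 bp, -0.51 up to 8000 bp and -0.62 up to 12000 bp. The members thus had the sign of their length band in all 9 cases, and 8 of the 9, Mff being the exception, lay farther from 0 than the median of their band. With the length trend removed from every library the log2 fold changes of Yme1l1, Dnm1l and Opa1 were 0.25, 0.28 and 0.20, that of Fis1 -0.19, and those of Mfn1 and Mff 0.0097 and 0.011. The median of the 9 was then 0.10, against -0.011 over all genes.

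**Figure D4:**
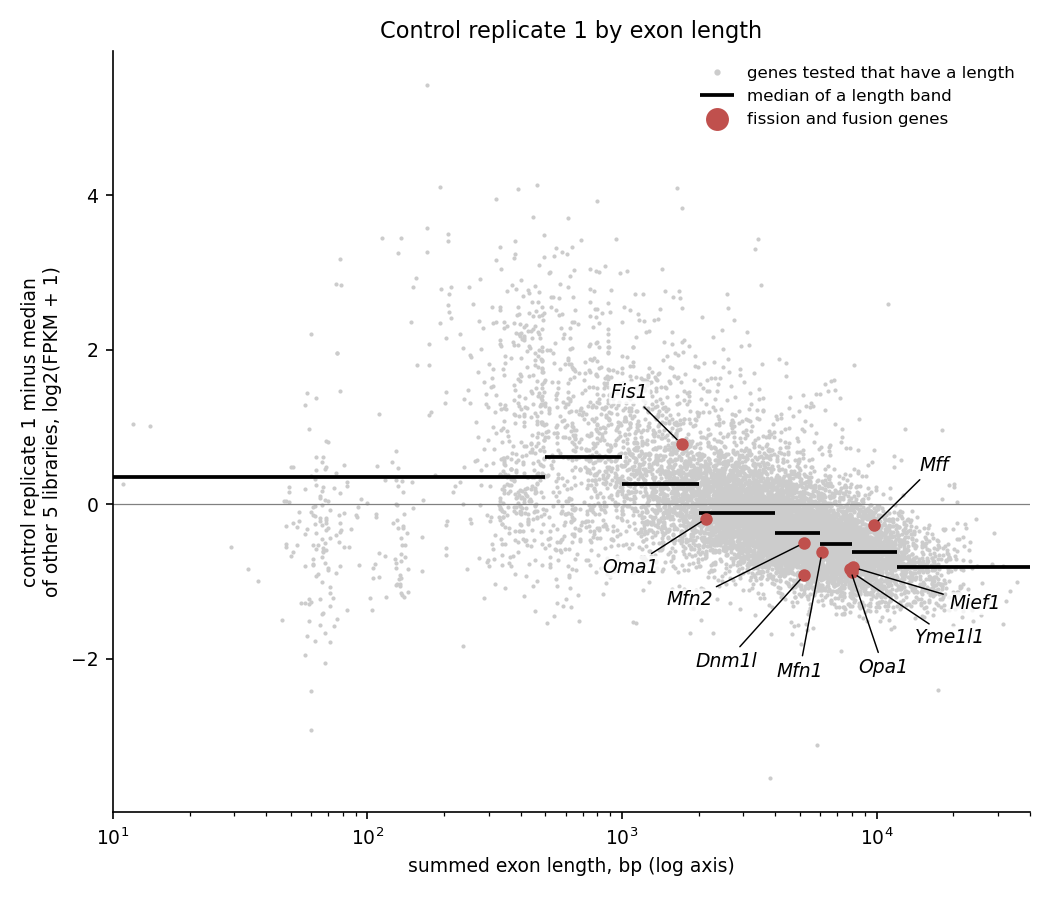
Control replicate 1 minus the median of the other 5 libraries on the log2(FPKM + 1) scale (y axis) against summed exon length in bp (x axis, log scale), with grey points for the genes tested that have an annotated length, black lines for the medians of length bands and red points for the 9 members. Fis1, at 1714 bp, lies at 0.78, and the 7 longest members lie between -0.27 and -0.91.

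Opa1, Dnm1l and Yme1l1 had nearly the same profile over the 6 libraries. Likeness was measured as the root mean square difference between log2(FPKM + 1) profiles, each centred on its own mean, over 6822 genes with a mean of at least 5 FPKM outside the 9. Between Dnm1l and Yme1l1 it was 0.025, between Opa1 and Yme1l1 0.030 and between Opa1 and Dnm1l 0.043, where the median gene differed by 0.25 from Opa1 and by 0.26 from Dnm1l. Of the other members Mief1 was nearest, at 0.057 from Opa1 and 0.083 from Dnm1l. Ranked among the 6822 genes by likeness to Opa1, Yme1l1 was at 16, Dnm1l at 53 and Mief1 at 136. Fis1 differed from Opa1 by 0.66 and Mfn2 by 0.20. The 3 genes outside the 9 most like Opa1 were Kpna3, a nuclear import receptor gene (0.020), Bzw1 (0.021) and Gmfb (0.023). Those most like Dnm1l were Tmed7, a cargo receptor gene of the early secretory pathway (0.015), Zfr (0.017) and U2surp (0.020). These profiles share control replicate 1 as their lowest library, and 6 libraries give many genes a like profile.

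Other genes of mitochondrial shape were taken from lists drawn up by function, and 0 passed the test in any list. Among 14 of 16 further fission and fusion factors, 6 had positive and 8 negative log2 fold changes, with a median of -0.060 (5 and 9, and -0.12, without control replicate 1). The highest was Spire1, an actin nucleator with a mitochondrial form, listed at 1.73, 2.92 and 2.72 FPKM in control and 3.30, 3.19 and 3.63 FPKM in DOPAC libraries, a log2 fold change of 0.36 that was 0.19 without control replicate 1. With all 6 libraries the lowest was Miga2, which promotes fusion at the outer membrane, at 1.76, 2.47 and 2.70 against 1.61, 1.89 and 2.00 FPKM, a log2 fold change of -0.21 that was -0.34 without control replicate 1 (limma adjusted p = 0.295). Msto1 was almost as low, at -0.21. Without control replicate 1 the lowest was Inf2, a formin gene of actin-driven fission, named after its values were seen, at -0.46 (limma adjusted p = 0.295) against -0.15 with all 6 libraries. Among 7 inner membrane proteases and scaffolds, all measured, 3 were positive and 4 negative, with a median of -0.059. Without control replicate 1 these became 4 positive and 3 negative, with a median of 0.049. They ran from -0.26 for Htra2, a protease of the intermembrane space, to 0.33 for Afg3l2, a subunit of the matrix-side AAA protease (-0.19 and 0.12 without that library).

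Among 10 regulators that act through ubiquitin, SUMO, phosphate or anchoring, 7 were positive and 3 negative, with a median of 0.10, and without control replicate 1 they were 5 and 5, with a median of 0.0022. The SUMO protease gene Senp5 was highest at 0.32 (0.047 without control replicate 1) and the calcineurin subunit gene Ppp3ca lowest at -0.12 (-0.069). Among 11 genes of the cristae complex MICOS and the outer membrane sorting machinery, 6 were positive and 5 negative, with a median of 0.0088 (5 and 6, and -0.0045, without control replicate 1). Immt, the MICOS core gene that encodes mitofilin, was highest at 0.30 (0.14 without control replicate 1), with 15.3, 20.8 and 22.3 FPKM in control and 23.2, 23.3 and 25.1 FPKM in DOPAC libraries. Micos13 was lowest at -0.52, which rests on control replicate 1, where it was listed at 38.1 FPKM against 12.0 to 13.0 FPKM elsewhere, and it was -0.018 without that library.

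The 5 genes of mitochondrial transport along microtubules held the highest and lowest values of their list in a pair of paralogs. Rhot1 and Rhot2 encode MIRO1 and MIRO2, GTPases of the outer membrane that link mitochondria to motors. Rhot1 was listed at 6.04, 9.07 and 8.88 FPKM in the controls and at 10.7, 9.96 and 10.9 FPKM with DOPAC. All DOPAC libraries were above all controls, as in 12.4% of all genes. The log2 fold change of Rhot1 was 0.37 (95% interval -0.038 to 0.79), and 0.21 without control replicate 1. Rhot2 was listed at 14.2, 18.5 and 19.4 FPKM in the controls and at 14.0, 15.5 and 15.7 FPKM with DOPAC, with a log2 fold change of -0.18 (95% interval -0.55 to 0.18). Without control replicate 1 it was -0.31 (95% interval -0.50 to -0.13, limma adjusted p = 0.295). In that fit 14.5% of all genes had an unadjusted limma p under 0.05. In all 4 of the 5 genes were positive with a median of 0.18, while without control replicate 1 only Rhot1 was positive and the median was -0.16.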

How the data were processed

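RNA was sequenced from 6 libraries, 3 control and 3 DOPAC, grouped by library name. Per the labels' protocols, TRIzol was used for RNA and full-length cDNA libraries came from SMART-Seq HT and Nextera XT kits, which do not mark strand. Per the submitters' processing notes, cutadapt 1.9, HISAT2 2.2.1 and mm10 were used. Which estimator and annotation gave the FPKM is not given in the sources used here. Per the file headers, the authors deposited FPKM for each gene in each library, with their own log2 fold change, p-values and adjusted p-values, also deposited, which were not used for results. Log2(FPKM + 1) was fitted with limma 3.58.1 in R 4.3.3 (trend, 6.75 total degrees of freedom) over 10887 genes with a mean of at least 1 FPKM, with Benjamini-Hochberg adjustment over all of them at a threshold of 0.05. The model was tested on simulated data. These had independent noise in each gene and no library that stood apart, so they do not cover the departure of control replicate 1. Fold changes on this scale understate changes of low genes. The 9 members and the lists were chosen with earlier results of these data known. From each list the genes with the highest and lowest log2 fold change were named. Gene positions and lengths of merged exons were read from GENCODE M21, GRCm38 (a length for 99.2% of genes tested), and near copies from blastn at 90% identity over 200 bp. Alternatives were other pseudocounts, filters, scalings, weights and variance models, a replicate block, removal of the length trend and each library left out. Same-numbered libraries' deviations from group means correlated over genes at 0.34, 0.16 and 0.28, each over 0.1. Such libraries were treated as paired in the block fit, although no label gives them an animal or day in common. Control replicate 2 with DOPAC replicate 3 gave 0.24, and control replicate 3 with DOPAC replicate 2 gave 0.19. The other pairs of unlike number gave -0.33 to -0.19. Since 2 unlike pairs exceeded the 0.16, these correlations do not show pairing. Figures used Python 3.11.15 and matplotlib 3.10.9.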

Additional observations from a re-analysis of the deposited data

How the results depend on the processing

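No member passed the adjusted threshold in any of the 17 alternatives tried (lowest adjusted p 0.329, Yme1l1 with the replicate block and control replicate 1 left out), and the median of the 9 stayed positive, between 0.046 and 0.26. Opa1, Oma1, Yme1l1, Dnm1l and Mff kept a positive log2 fold change in all 17. The sign of 4 members turned. Mfn1 was -0.015 with library weights, -0.015 with the replicate block and control replicate 1 left out, and -0.073 to 0.25 when 1 library at a time was left out. Fis1 was 0.10 with weights, 0.039 with the block and without control replicate 1, and -0.48 to 0.076 with 1 library left out. With 1 library left out Mfn2 ran from -0.24 to 0.091 and Mief1 from -0.012 to 0.40. The Dnm1l to Opa1 log2 ratio difference ran from -0.0063 to 0.054 with 1 library left out and was 0.085 with the length trend removed. Over all genes 2 passed, both lower, with library weights, and 0 to 2 when 1 library was left out (2 without control replicate 1). The replicate block with all 6 libraries changed no call and gave 0 genes. Depth is unknown, so its limit on genes near 1 FPKM could not be computed.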
